A study of Mus musculus with 9 samples.

Results

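Spironolactone, which blocks the mineralocorticoid receptor (MR), was compared directly with prednisolone, which activates the glucocorticoid receptor (GR), in myeloid cells of dystrophic muscle. The comparison rests on 3 spironolactone and 3 prednisolone libraries, which are 6 of the 9 RNA-Seq libraries of the series. The other 3 come from vehicle-treated mice and give the level without either drug. Every mouse in all 3 groups was an *mdx* mouse, which lacks dystrophin, and was 4.5 weeks old after 7 days of treatment through the drinking water. Drug was dissolved in the same sweetened MediDrop that vehicle mice received alone, and the doses of the drugs differed. Each library pooled the quadriceps of 3 mice, with males and females in every group. Cells were sorted as CD45+CD11b+, with no gate on live cells, so that a library holds macrophages, monocytes, neutrophils, and any other cell that met the gate. Of 50559 genes listed in the count files, 29739 had at least 1 count and 16618 had enough counts to be tested.

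MR and GR are closely related nuclear receptors that bind the same DNA elements, and cortisol or corticosterone can occupy either. Glucocorticoids bound to GR lower the transcription of many inflammatory genes in macrophages and raise another set of genes, such as *Tsc22d3* and *Fkbp5*. Macrophages also express MR, and mineralocorticoids push them toward inflammatory gene expression, which spironolactone opposes. In *mdx* muscle, repeated fiber necrosis draws monocytes in from the blood. They become macrophages that clear debris, feed regeneration, and lay down or remodel matrix.

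Gene counts ranged from 31469815 to 32943512 per library, so that a level of 1 CPM (the usual depth-scaled count, with TMM-scaled library sizes) stands for about 32.4 counts. The genes for the sorted surface proteins and the macrophage gates of the study were high in every library. *Ptprc*, which encodes CD45, ranged from 545 to 623 CPM with spironolactone and from 576 to 660 CPM with prednisolone. *Itgam*, which encodes CD11b, was 984, 1170, and 978 CPM with spironolactone and 1453, 1281, and 1486 CPM with prednisolone, and was called lower with spironolactone (log2 fold change −0.43 ± 0.11, adjusted p = 0.0353). That call held in 4 of the 9 fits that each left out 1 library, with an adjusted p of 0.146 without spironolactone library 3. Of those 4, only the fit without spironolactone library 2 left out a drug library. *Adgre1*, a pan-macrophage marker, *Fcgr1*, which encodes CD64, *Mrc1*, which encodes CD206, and *Cd68* did not pass the test, with log2 fold changes of −0.04, 0.47, −0.24, and 0.26.

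Of the 16618 genes tested, 859 differed between the drugs (5.17% called at an adjusted p under 0.05). Of these, 395 (2.38%) had the higher level with spironolactone and 464 (2.79%) had the lower. Fold changes are given throughout as spironolactone over prednisolone, on a log2 scale, with the SE of the fit. The higher genes had the larger changes, with a median of 0.76 against −0.54 for the lower genes, and 140 higher but 68 lower genes had a log2 change of at least 1. Another 402 called genes changed by less than 1.5-fold. All 859 had no overlap between the 3 spironolactone and the 3 prednisolone libraries, as did 30.3% of all genes tested, 2513 higher and 2521 lower. Against vehicle, 3 genes were called for spironolactone (0.0181%) and 293 for prednisolone (1.76%) in the same fit. Those comparisons share the drug libraries with the direct comparison, so that the values and tests against vehicle given below are not independent of it. In these bulk samples, fewer cells of a type and less RNA per cell cannot be told apart.

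The number of calls changed when 1 library was left out. Each fit without a drug library also had 1 replicate fewer for that drug. That loss cannot be told apart from an effect of the library itself. Of the 9 fits without 1 library, 3 left out a vehicle library and kept every drug library, and tallies out of 9 include these 3. The number of calls fell to 776, 412, and 270 without spironolactone library 1, 2, or 3. It was 304, 232, and 380 without prednisolone library 1, 2, or 3, and rose to 1898 without vehicle library 1. When libraries were scaled by their totals in place of TMM factors, 35.7% of 917 called genes were higher, against 46.0% of the 859, and with upper quartile factors 53.3% of 852 were higher. The median of all genes tested stayed between −0.01 and 0.05 in every fit.

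**Figure D1:**
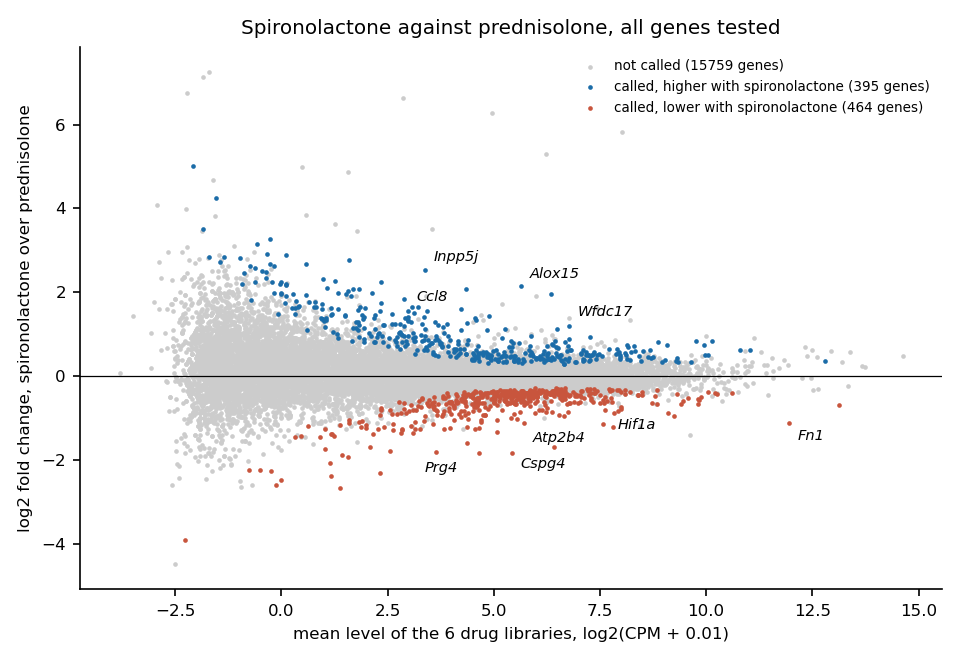
Each point is 1 of the 16618 genes tested, with the mean level of the 6 drug libraries on the x axis (log2 of CPM plus 0.01) and the log2 fold change of spironolactone over prednisolone on the y axis. The 395 genes called higher (blue) reach larger changes than the 464 called lower (red), and the gray points at the top with large changes but no call include the neutrophil genes *Mpo*, *Camp*, *Ngp*, and *Ltf*.

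Among the genes higher with spironolactone, *Wfdc17* had the smallest adjusted p. It encodes a small secreted protein of the whey acidic protein family that activated macrophages make, at chr11:83594817-83597095 of GRCm39. *Wfdc17* was 145, 157, and 153 CPM in the spironolactone libraries, 70.2, 63.1, and 66.8 CPM in the prednisolone libraries, and 117, 145, and 141 CPM in the vehicle libraries. Every prednisolone library was below every other library, and the drugs differed by 1.19 ± 0.10 (adjusted p = 7.3e-05). *Inpp5j*, an inositol polyphosphate 5-phosphatase gene at chr11:3444137-3455500, was 16.7, 19.3, and 17.5 CPM with spironolactone against 2.61, 2.63, and 3.92 CPM with prednisolone, and 11.9 to 19.6 CPM with vehicle. The prednisolone libraries again stood apart, by 2.54 ± 0.22 (adjusted p = 8.66e-05). *Inpp5j* overlaps *Pla2g3* on the opposite strand, and reads of the pair cannot be told apart here because the strand setting of the counting is not given in the sources used here.

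*Ccl8*, a chemokine that attracts monocytes and other leukocytes (chr11:82006007-82007625), was 12.28, 12.04, and 10.89 CPM with spironolactone and 4.10, 3.48, and 4.43 CPM with prednisolone. The vehicle libraries, at 8.70 to 11.2 CPM, lay nearer the spironolactone level, and the difference between the drugs was 1.55 ± 0.16 (adjusted p = 0.000344). *Alox15*, the 12/15-lipoxygenase of resident macrophages and eosinophils (chr11:70234970-70242858), was 64.5, 80.2, and 99.0 CPM with spironolactone, 14.9, 16.1, and 24.2 CPM with prednisolone, and 49.6 to 70.9 CPM with vehicle. The highest prednisolone library did not reach the lowest of the other 6 (2.14 ± 0.22, adjusted p = 0.00124). *Retnla*, a secreted marker of alternatively activated macrophages, was 18.5, 22.3, and 21.7 CPM with spironolactone and 8.26, 9.75, and 8.55 CPM with prednisolone (1.23 ± 0.15, adjusted p = 0.000634).

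The remaining leading genes that were higher with spironolactone were *Rflnb*, *Sytl1*, *Sema7a*, *Aplnr*, and *P2rx1*. *Sytl1*, which encodes a Rab27 effector in secretion, was 4.24 to 6.78 CPM with spironolactone and 0.564 to 1.07 CPM with prednisolone, a change of 2.78 ± 0.31 (adjusted p = 0.000414). *P2rx1*, an ATP-gated ion channel, changed by 1.98 ± 0.26, *Rflnb*, a regulator of actin filaments, by 1.61 ± 0.17, and *Sema7a*, a membrane-anchored semaphorin, by 1.27 ± 0.14. *Aplnr*, the apelin receptor of endothelial cells, was different in its vehicle level. It was 15.9, 12.9, and 13.4 CPM with spironolactone, 4.86, 4.71, and 3.98 CPM with prednisolone, and 4.23, 5.74, and 7.04 CPM with vehicle, so that here the spironolactone libraries stood apart (1.64 ± 0.19, adjusted p = 0.000579). Against vehicle, *Aplnr* was called for spironolactone at 1.31 (adjusted p = 0.0438).

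Among the genes lower with spironolactone, *Atp2b4*, a plasma membrane calcium pump (chr1:133627195-133728923), led with 34.2, 32.4, and 32.5 CPM against 67.6, 73.6, and 75.6 CPM with prednisolone. The vehicle libraries, at 35.2 to 42.5 CPM, lay close to the spironolactone libraries, and the drugs differed by −1.13 ± 0.09 (adjusted p = 7.3e-05). *Myo1d*, an unconventional myosin gene at chr11:80372952-80670883, was 15.7, 14.9, and 14 CPM with spironolactone and 33.0, 37.4, and 35.2 CPM with prednisolone, with vehicle at 15.2 to 18.2 CPM. Again only the prednisolone libraries were high (−1.24 ± 0.11, adjusted p = 8.66e-05).

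*Cspg4*, the NG2 proteoglycan (chr9:56772317-56807187), was 21.2, 16.4, and 19.0 CPM with spironolactone, 67.2, 76.1, and 58.8 CPM with prednisolone, and 18.1 to 28.3 CPM with vehicle. The lowest prednisolone library was above every other library, and the change was −1.84 ± 0.16 (adjusted p = 0.000118). *Prg4*, which encodes the surface lubricant lubricin (chr1:150325163-150342009), was 10.5, 9.61, and 13.2 CPM with spironolactone and 47.3, 39.6, and 31.6 CPM with prednisolone, with vehicle at 9.38 to 13.3 CPM (−1.83 ± 0.18, adjusted p = 0.000305). *Prg4* overlaps *Tpr* on the opposite strand. *Sel1l3*, *Slc7a1*, *Ppp1r12b*, *Pdpn*, *Mmp19*, and *Mamdc2* completed the leading genes, with changes of −1.05 to −1.34. Of these, *Slc7a1* imports arginine and other cationic amino acids, *Pdpn* encodes podoplanin, and *Ppp1r12b* a subunit of myosin phosphatase. All 20 leading genes kept their call in each of 12 other fits and in each of the 9 fits without 1 library.

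**Figure D2:**
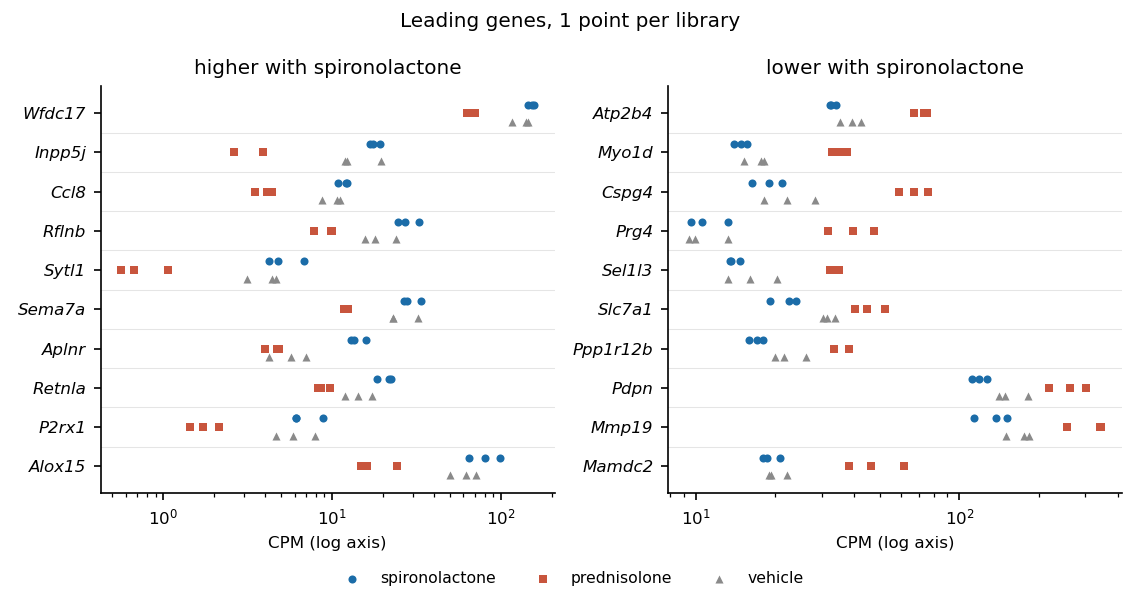
Each row is 1 of the 10 leading genes in a direction, and each point is 1 library, with the level in CPM on a log axis. For *Wfdc17*, *Inpp5j*, *Alox15*, and most other rows the red prednisolone squares stand apart from the blue spironolactone circles and the gray vehicle triangles, whereas for *Aplnr* the spironolactone circles stand apart.

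Extracellular matrix genes and those of its remodeling enzymes changed in either direction. Of 46 matrix and matrix-associated genes that macrophages can express, 10 were called lower and 5 higher with spironolactone, against 2.79% and 2.38% of all genes tested, and the list's median was −0.10, against 0.03 for all genes. *Fn1*, which encodes fibronectin (chr1:71624673-71692419), was 2080, 3203, and 2191 CPM with spironolactone, 6068, 5005, and 5189 CPM with prednisolone, and 3890, 3904, and 3167 CPM with vehicle. *Fn1* overlaps *Apol7d* on the opposite strand. The groups of the drugs lay on either side of vehicle, although spironolactone library 2 was above the lowest vehicle library. The change was −1.12 ± 0.16 (adjusted p = 0.00254). Neither drug differed from vehicle by the edgeR test used here, at −0.55 (adjusted p = 0.217) for spironolactone and 0.57 (adjusted p = 0.0922) for prednisolone. The study, which used DESeq2, reported *Fn1* as reduced by spironolactone and increased by prednisolone.

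*Ctsk*, cathepsin K, which degrades collagen, was 48.1, 34.5, and 39.0 CPM with spironolactone and 118, 157, and 117 CPM with prednisolone (−1.69 ± 0.21, adjusted p = 0.00281). The metalloproteinase gene *Mmp19* was 138, 152, and 114 CPM against 346, 341, and 256 CPM (−1.23 ± 0.14, adjusted p = 0.000414). *Ecm1*, extracellular matrix protein 1, was 358, 460, and 421 CPM against 740, 808, and 846 CPM (−0.95 ± 0.11, adjusted p = 0.000588). For all 3 genes the vehicle libraries were far nearer the spironolactone libraries than the prednisolone libraries, with means of 47.1, 170, and 463 CPM.

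*F13a1*, the A subunit of the factor XIII transglutaminase, was also lower (−0.88 ± 0.14, adjusted p = 0.00359) and held its call without each library. *Mmp12*, the macrophage elastase, changed by −0.67 ± 0.13 (adjusted p = 0.0129, called in 7 of the 9 fits without 1 library, 0.0556 without spironolactone library 2 and 0.0554 without prednisolone library 2). *Spp1*, osteopontin, was 8329, 6473, and 5584 CPM with spironolactone and 10950, 10890, and 11080 CPM with prednisolone, and *Lamc1*, a laminin chain, was 69.5 to 91.0 CPM against 105 to 111 CPM. Their calls (−0.69, adjusted p = 0.0274, and −0.46, adjusted p = 0.0195) were each kept in 4 of those 9 fits.

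The 5 matrix genes that were higher were *Lgals1*, *Adamts1*, *Mmp27*, *Loxl3*, and *Timp3*. *Lgals1*, galectin-1, was 1183, 1063, and 1279 CPM with spironolactone and 890, 814, and 774 CPM with prednisolone (0.51 ± 0.10, adjusted p = 0.0120). *Adamts1*, a secreted protease, changed by 0.96, *Mmp27* by 1.02, *Loxl3*, a lysyl oxidase-like enzyme, by 0.73, and *Timp3*, a metalloproteinase inhibitor, by 0.85 (adjusted p = 0.0201 to 0.0312). These calls were the less stable ones, with none left without prednisolone library 2 or 3, 1 without spironolactone library 1 or 3, and 2 without prednisolone library 1. The count of lower matrix genes was 7 to 13 in all 9 fits.

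**Figure D3:**
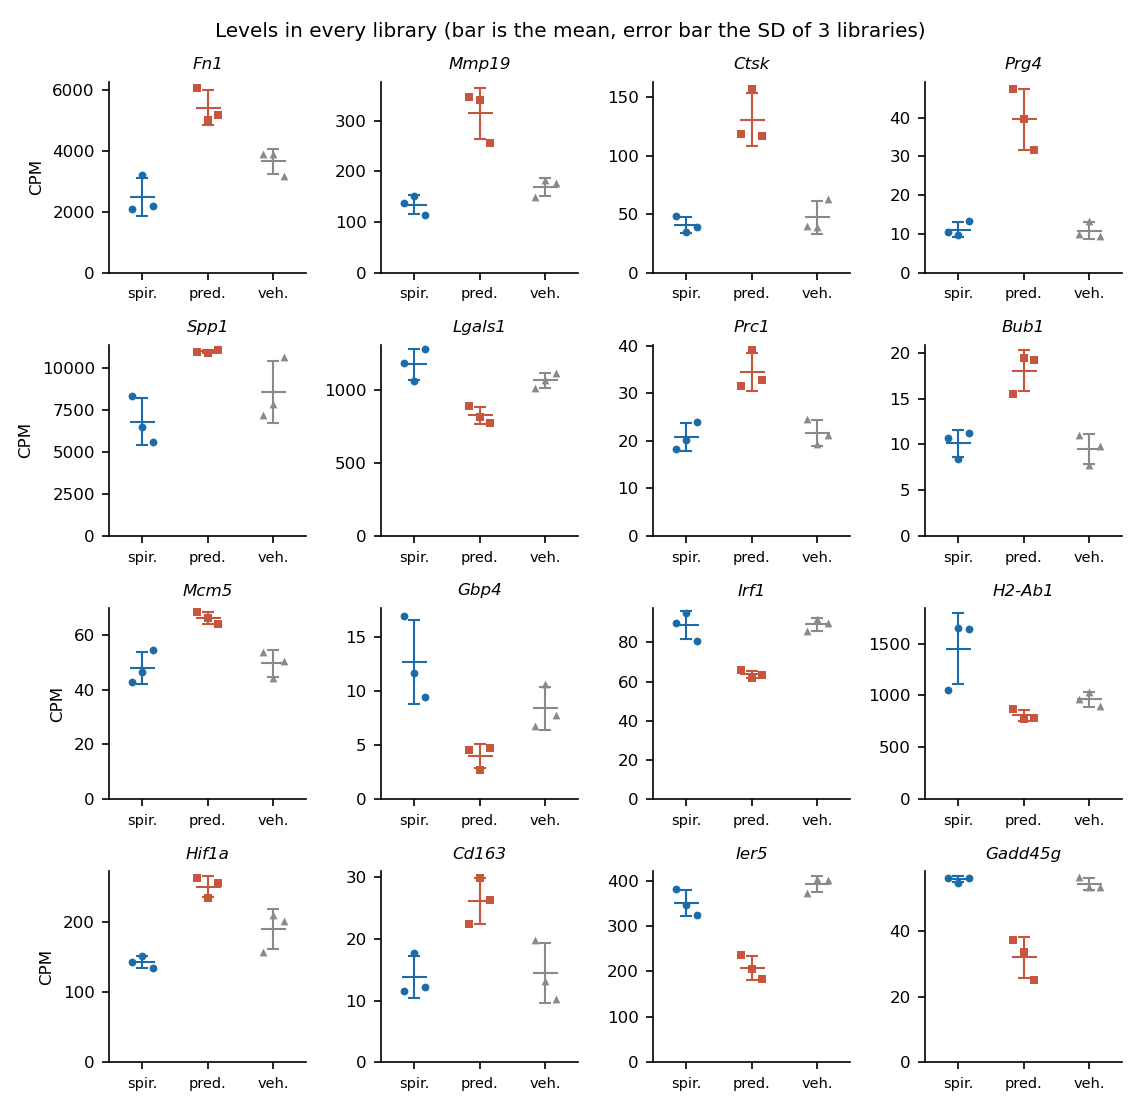
Each panel gives the level of 1 gene in CPM in the 9 libraries, with the mean as a bar and the SD of 3 libraries as an error bar. *Fn1*, *Mmp19*, *Ctsk*, and *Prg4* are highest with prednisolone, whereas *Lgals1*, *Gbp4*, *Irf1*, *H2-Ab1*, *Ier5*, and *Gadd45g* are lowest with it.

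Genes of cell division were lower with spironolactone than with prednisolone. Of 54 G2 and M phase genes, 20 (37.0%, against 2.79% of all genes) were called lower and none higher, and 53 of 54 had a negative change, with a median of −0.53. Of 53 S phase and replication genes, 12 (22.6%) were called lower and none higher, with a median of −0.39. Relative to vehicle in the same fit, the G2 and M phase median was 0.12 with spironolactone and 0.67 with prednisolone, and the S phase median 0.03 and 0.40. Over both lists, 78 of 107 genes were lower without overlap between the drugs, where 30.3% of all genes tested do not overlap in either direction.

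*Prc1*, which bundles the microtubules of the spindle midzone, was 18.2, 20.1, and 23.9 CPM with spironolactone, 31.6, 39.2, and 32.8 CPM with prednisolone, and 19.3 to 24.7 CPM with vehicle (−0.73 ± 0.13, adjusted p = 0.00782). *Bub1*, a kinase of the spindle checkpoint, was 10.7, 8.44, and 11.2 CPM against 15.5, 19.4, and 19.3 CPM (−0.83 ± 0.16, adjusted p = 0.0112). In both, the prednisolone libraries were above all other libraries. *Plk1*, a mitotic kinase, changed by −0.64, *Ckap2l*, a spindle protein, by −0.72, *Ccnb1* and *Ccnb2*, the B cyclins that drive entry into mitosis, by −0.75 and −0.52, *Top2a*, which untangles chromosomes, by −0.58, and *Ube2c*, which helps to destroy the cyclins, by −0.48. *Mki67*, the common marker of cycling cells, was 208, 175, and 181 CPM with spironolactone and 289, 317, and 319 CPM with prednisolone, but did not pass the test (−0.71 ± 0.20, adjusted p = 0.0632).

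In S phase, *Mcm5* and *Mcm6*, subunits of the helicase that opens DNA for replication, changed by −0.47 and −0.48, *Rrm1*, which makes deoxynucleotides, by −0.51, and *Ccne1*, the cyclin of S phase entry, by −0.82 (adjusted p = 0.0214 to 0.0352). *Mcm5* was 42.8, 46.4, and 54.3 CPM with spironolactone and 68.5, 66.2, and 64.1 CPM with prednisolone, without overlap.

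The counts of cell cycle calls moved with the libraries. G2 and M phase calls numbered 8, 3, and 7 without spironolactone library 1, 2, or 3, 7, 2, and 2 without prednisolone library 1, 2, or 3, and 33 without vehicle library 1. S phase calls numbered 6, 0, and 3 and then 0, 0, and 1 in the same order, and 18 without vehicle library 1. With the log2 CPM of *Xist*, the X inactivation RNA, as a covariate, 17 G2 and M phase and 2 S phase genes were called lower. Of the 9 fits, *Prc1* was at the threshold itself without prednisolone library 2 (adjusted p = 0.05), and *Bub1* lost its call only there (adjusted p = 0.0616).

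Promoters of mitotic genes share a pair of elements, the cell cycle homology region (CHR), searched here as TTTGAA, and the CCAAT box, both on either strand. In windows of 250 bases before to 50 bases after the start site in the RefSeq promoter table (GRCm38.p6), which held 44 of the 54 G2 and M phase genes in 47 windows, TTTGAA was found in 68.1% and CCAAT in 76.6%. The shares were 13% and 60.9% of the 46 windows of S phase genes, and 17.9% and 37.4% of all 32851 windows. They were 13.6% and 34.3% for all genes called lower with spironolactone, and 12.9% and 36.4% for those called higher. The promoters of 4 genes called lower are printed to show how the elements lie, as the 250 bases before the start site on the coding strand, with both elements in capitals.
Prc1, chr7:80294226-80294475, plus strand: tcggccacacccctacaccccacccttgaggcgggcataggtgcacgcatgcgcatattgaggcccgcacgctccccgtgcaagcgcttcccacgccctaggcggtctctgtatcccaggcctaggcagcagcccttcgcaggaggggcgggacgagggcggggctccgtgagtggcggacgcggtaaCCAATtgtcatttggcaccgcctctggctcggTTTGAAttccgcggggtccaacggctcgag
Ckap2l, chr2:129297213-129297462, minus strand: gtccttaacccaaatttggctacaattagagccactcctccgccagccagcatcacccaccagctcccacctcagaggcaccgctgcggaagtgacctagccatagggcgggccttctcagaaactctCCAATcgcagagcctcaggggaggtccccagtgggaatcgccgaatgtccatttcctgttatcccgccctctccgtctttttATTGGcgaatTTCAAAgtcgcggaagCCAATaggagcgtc
Ccnb2, chr9:70421555-70421804, minus strand: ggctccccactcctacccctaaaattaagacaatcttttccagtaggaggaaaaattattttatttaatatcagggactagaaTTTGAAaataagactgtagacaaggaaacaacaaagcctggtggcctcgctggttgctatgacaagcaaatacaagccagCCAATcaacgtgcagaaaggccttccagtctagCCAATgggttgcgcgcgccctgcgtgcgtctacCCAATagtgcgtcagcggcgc
Ube2c, chr2:164769679-164769928, plus strand: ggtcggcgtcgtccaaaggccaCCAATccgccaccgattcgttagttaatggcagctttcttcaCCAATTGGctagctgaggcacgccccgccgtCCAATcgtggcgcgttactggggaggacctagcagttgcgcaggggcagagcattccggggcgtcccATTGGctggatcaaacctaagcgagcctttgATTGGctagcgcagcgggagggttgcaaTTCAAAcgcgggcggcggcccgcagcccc
In *Prc1*, *Ckap2l*, and *Ube2c* the CHR match began 29 or 30 bases before the start site, in the reverse orientation (TTCAAA) in *Ckap2l* and *Ube2c*. In *Ccnb2* the match in this stretch lay farther off, 167 bases before the start site. *Ccnb2* and *Ckap2l* each had a further CHR match in the 50 bases after the start site, which are not printed. Matches are letters in a window and say nothing on binding in these cells.

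Interferon-stimulated genes were higher with spironolactone than with prednisolone. Of 53 tested, 10 (18.9%, against 2.38% of all genes) were called higher and none lower, all 53 had a positive change, and the median was 0.49. The median relative to vehicle was 0.03 with spironolactone and −0.45 with prednisolone. Prednisolone library 2 stood apart there, with a mean log2 CPM over the list of 5.42 against 5.94 and 6.11 in libraries 1 and 3 and 5.95 to 6.63 with vehicle. *Gbp4*, a guanylate-binding protein of intracellular defense, was 17.0, 11.7, and 9.47 CPM with spironolactone and 4.59, 2.75, and 4.72 CPM with prednisolone (1.66 ± 0.26, adjusted p = 0.00496). *Irf1*, a transcription factor induced by interferon gamma, was 90.0, 95.1, and 81.0 CPM against 65.8, 62.1, and 63.2 CPM, with vehicle at 85.6 to 91.9 CPM (0.48 ± 0.09, adjusted p = 0.00781). In both genes the prednisolone libraries were the lowest of all 9.

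*Iigp1*, an interferon-inducible GTPase, changed by 1.42 ± 0.26 and *Gbp3* by 0.71 ± 0.14 (each adjusted p = 0.0105). *Irf8*, which directs monocyte and dendritic cell development, changed by 0.45. The immunoproteasome subunits *Psmb8* and *Psmb9* changed by 0.55 and 0.68, *Tap1*, which loads peptides for MHC class I, by 0.48, *Oas2*, a sensor of double-stranded RNA, by 0.49, and *Bst2*, tetherin, by 0.52 (adjusted p = 0.0129 to 0.0474 for these 6). *Psmb9* and *Tap1* overlap on opposite strands, and the Gbp genes are closely related copies in clusters, so that their reads may be shared. The calls numbered 7, 5, and 5 without spironolactone library 1, 2, or 3, and 3, 2, and 9 without prednisolone library 1, 2, or 3. *Gbp4* held in every one of those fits, and *Irf1* lost its call only without prednisolone library 2 (adjusted p = 0.0501).

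The interferon-stimulated response element, searched as TTTCNNTTTC on either strand, was found in 51.1% of the 47 windows of these genes, against 3.44% of all windows, 5.80% of the windows of genes called higher, and 1.94% of those called lower. The promoter of *Gbp3* is shown because overlapping matches run together in it shortly before the start site, from 45 and 39 bases before it (capitals, same table and strand rule).
Gbp3, chr3:142559794-142560043, plus strand: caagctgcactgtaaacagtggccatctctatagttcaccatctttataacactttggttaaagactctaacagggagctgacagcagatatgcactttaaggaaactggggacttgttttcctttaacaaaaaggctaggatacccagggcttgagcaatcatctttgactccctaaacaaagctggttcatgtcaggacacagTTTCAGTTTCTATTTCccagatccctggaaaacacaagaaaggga

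Genes of MHC class II antigen presentation, which shows antigen to CD4 T cells, were also higher with spironolactone. Of 19 genes on this list, 8 were called higher and 1 lower (47.4% in either direction, against 5.17% of all genes), with a median of 0.48. The 8 include *Cd40* and *Ifi30*, and the 1 lower was *Cd80*, which are not class II genes themselves. *H2-Ab1*, a class II beta chain, was 1056, 1650, and 1643 CPM with spironolactone, 869, 773, and 780 CPM with prednisolone, and 895 to 1035 CPM with vehicle (0.84 ± 0.15, adjusted p = 0.00732). Spironolactone libraries 2 and 3 were well above the rest, and spironolactone library 1 was close to the vehicle libraries. *H2-Aa* and *H2-Eb1*, the other classical chains, were likewise highest in spironolactone libraries 2 and 3, and each changed by 0.74 (adjusted p = 0.0247 and 0.0243), although *H2-Aa* and *H2-Eb1* overlap on opposite strands. The rarer *H2-Oa* changed by 1.35 ± 0.22 and *H2-DMb1*, which helps to load peptides, by 0.62.

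*Ciita*, the master regulator of class II transcription, was 93.8, 128, and 110 CPM against 84.1, 74.8, and 76.9 CPM (0.49, adjusted p = 0.0416), and *Ifi30*, a lysosomal reductase, changed by 0.37. *Cd40*, a costimulatory receptor, rose by 0.85 ± 0.17, whereas *Cd80*, a ligand of CD28, was 24.5, 38.2, and 30.3 CPM with spironolactone against 58.5, 63.0, and 51.8 CPM with prednisolone, a change of −0.90 ± 0.17 (adjusted p = 0.0151). *Cd74*, the invariant chain, was 2075, 3522, and 3420 CPM against 2182, 1900, and 1931 CPM and did not pass the test (0.58, adjusted p = 0.0851). *H2-Ab1* and *H2-Oa* kept the call in all 9 fits without 1 library. The count of higher genes on this list was 2 and 3 without spironolactone library 2 or 3, and 3, 2, and 3 without prednisolone library 1, 2, or 3. The dendritic cell markers were also highest in spironolactone libraries 2 and 3, with a mean log2 CPM of 4.583 and 4.642 against 4.145 in spironolactone library 1 and 4.18 to 4.32 in the prednisolone and vehicle libraries, and their part in the class II result was not tested.

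**Figure D4:**
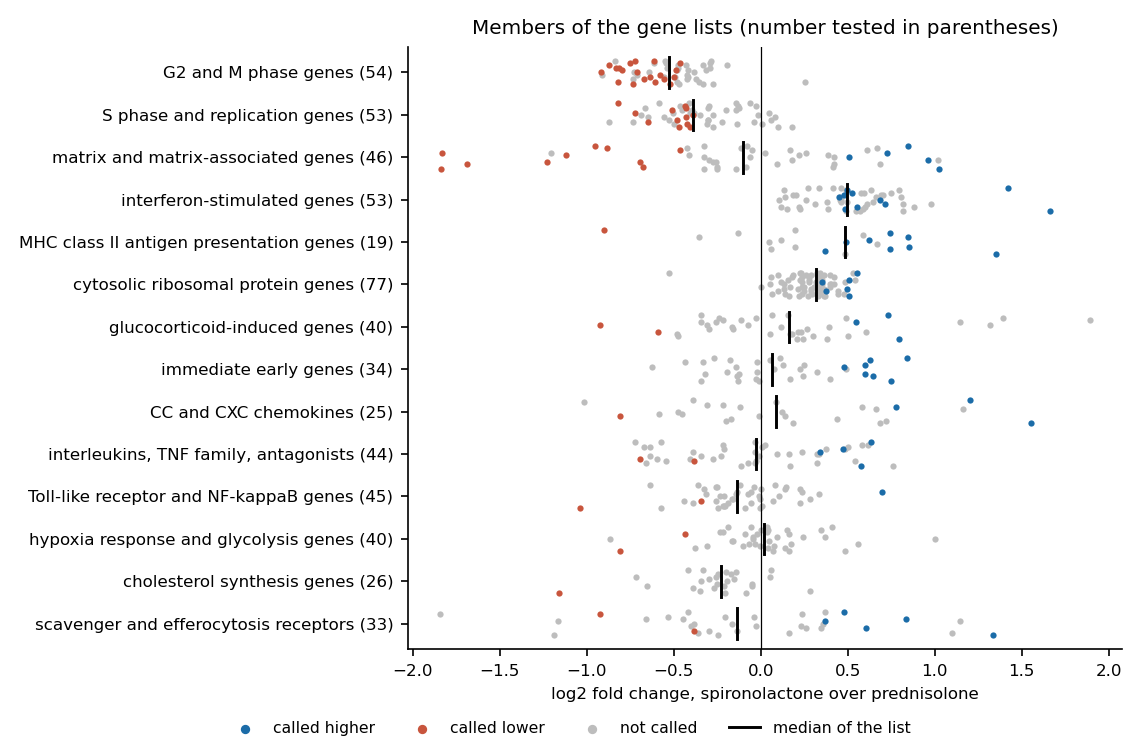
Each point is a gene of the list named at the left, placed by its log2 fold change of spironolactone over prednisolone, with called genes in color and the median of the list as a black line. G2 and M phase and S phase genes lie mostly left of 0, with medians of −0.53 and −0.39, and interferon-stimulated, MHC class II, and ribosomal protein genes mostly right, with medians of 0.49, 0.48, and 0.32.

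Of 25 CC and CXC chemokine genes, *Ccl8*, *Ccl4*, and *Ccl5* were higher and *Cxcl14* lower with spironolactone, 16% of the list against 5.17% of all genes tested. *Ccl4* was 107, 105, and 103 CPM with spironolactone, 72.6, 56.5, and 55.1 CPM with prednisolone, and 138, 167, and 163 CPM with vehicle. Both drug groups were below every vehicle library, prednisolone farther (0.77 ± 0.11 between the drugs, adjusted p = 0.00254), although against vehicle only prednisolone was called, at −1.34 against −0.57. *Ccl3*, which shares receptors with *Ccl4*, was ordered in the same way at 140, 146, and 150 CPM against 123, 112, and 87.5 CPM and did not pass the test (0.44, adjusted p = 0.119). *Ccl5* was 8.42, 10.8, and 11.6 CPM against 4.74, 2.90, and 5.76 CPM (1.2 ± 0.26, adjusted p = 0.0221), and *Cxcl14* 44.1, 48.7, and 52.8 CPM against 66.2, 101, and 88.0 CPM (−0.81 ± 0.17, adjusted p = 0.0203). *Ccl5* kept its call in 5 and *Cxcl14* in 4 of the 9 fits without 1 library. Of 16 chemokine receptor genes, 1 was called, the eosinophil receptor *Ccr3* (1.54 ± 0.21, adjusted p = 0.00205). This call is 6.25% of the list, near the 5.17% of all genes tested, so that it is a result on *Ccr3* and not on the list.

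A list of 44 interleukins, TNF family members, their antagonists, and other signaling genes had 4 higher and 2 lower (13.6%, against 5.17% of all genes tested). Of the 6 called, only *Il16* and *Il18bp* are an interleukin or an antagonist of one. *Il16*, an attractant of CD4 cells, changed by 0.58, *Igf1*, a growth factor for regenerating fibers, by 0.47, *Il18bp*, the decoy receptor of interleukin-18, by 0.63, *Trem2*, a lipid-sensing receptor, by 0.34, *Spp1* by −0.69, and *Csf2rb*, the shared chain of the receptors for GM-CSF, interleukin-3, and interleukin-5, by −0.38 (adjusted p = 0.0158 to 0.0486). *Igf1* was 238, 206, and 211 CPM with spironolactone and 160, 160, and 153 CPM with prednisolone. None of the 6 was called without prednisolone library 2, without prednisolone library 1, or without spironolactone library 3.

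Among 45 Toll-like receptor and NF-kappaB genes, *Nod1*, a sensor of bacterial peptidoglycan, was higher (0.69), and *Tlr5* and *Tlr4*, the receptors of flagellin and of lipopolysaccharide, were lower. The 3 calls are 6.67% of the list, near the 5.17% of all genes tested. *Tlr5* was 10.9, 11.7, and 10.2 CPM with spironolactone, 24.3, 17.8, and 25.3 CPM with prednisolone, and 14.5 to 16.6 CPM with vehicle, so that the vehicle libraries lay between (−1.04 ± 0.14, adjusted p = 0.00177, called without each library). *Tlr4* changed by −0.34 (adjusted p = 0.0311) and kept its call in 3 of the 9 fits without 1 library, those that left out a vehicle library. *Nod1* kept its call in 7 of the 9.

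Known targets of GR were called in either direction. Of 40 glucocorticoid-induced genes tested, 3 were higher and 2 lower with spironolactone (12.5%, against 5.17% of all genes), and the median was 0.16. *Gadd45g*, a stress response gene, was 56.2, 54.6, and 56.2 CPM with spironolactone, 37.4, 33.6, and 25.2 CPM with prednisolone, and 53.3 to 56.5 CPM with vehicle (0.80 ± 0.12, adjusted p = 0.00317). *Rgs2*, an inhibitor of G protein signaling, was 346, 323, and 306 CPM against 224, 229, and 215 CPM (0.55 ± 0.09, adjusted p = 0.00478). In both genes the prednisolone libraries were the lowest of all 9, as they were for the transcriptional repressor *Zbtb16* (0.73, adjusted p = 0.0377). The lower calls of the list fell from 2 to 0 without spironolactone library 3 or prednisolone library 1 or 2. *Zbtb16* kept its call in 3 of the 9 fits without 1 library, those that left out a vehicle library.

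The genes that were lower with spironolactone were *Errfi1*, an inhibitor of the EGF receptor, and *Cd163*, the hemoglobin scavenger receptor and a classic glucocorticoid-induced gene of macrophages. *Cd163* was 11.5, 17.6, and 12.3 CPM with spironolactone, 22.4, 29.9, and 26.2 CPM with prednisolone, and 10.3 to 19.8 CPM with vehicle (−0.92 ± 0.23, adjusted p = 0.0448), with the call kept in 3 of the 9 fits without 1 library. *Fkbp5*, a chaperone that limits GR, was 34.8, 39.4, and 46.2 CPM with spironolactone, 60.7, 57.2, and 50.4 CPM with prednisolone, and 51.1 to 75.1 CPM with vehicle (−0.48 ± 0.14, adjusted p = 0.0657). *Tsc22d3*, which encodes GILZ, changed by 0.27 (adjusted p = 0.338), and the clock gene *Per1* by 0.50 (adjusted p = 0.0987). *Dusp1*, a MAP kinase phosphatase, was 997, 927, and 1133 CPM against 1056, 940, and 723 CPM and overlapped between the drugs (0.17, adjusted p = 0.544). All 3 vehicle libraries were above all drug libraries for *Dusp1*.

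The receptors themselves gave no call. *Nr3c1*, which encodes GR, was 94.0, 88.0, and 78.2 CPM with spironolactone and 97.0, 85.9, and 95.8 CPM with prednisolone (−0.10, adjusted p = 0.567). *Nr3c2*, which encodes MR, was under 1 CPM in every library, at 0.949, 0.885, and 0.0633 CPM against 0.213, 0.122, and 0.327 CPM, so that its level overlapped between the drugs and varied widely among the spironolactone libraries (adjusted p = 0.331). Of 22 receptors, steroid enzymes, and chaperones, the heat shock genes *Hspa1a* and *Hspa1b* were higher, each by 0.60 ± 0.09, which is 9.09% of the list against 5.17% of all genes. These are near-identical copies, and their reads may be shared.

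A list of 34 immediate early and stress genes held genes that cells switch on within minutes of a stimulus or of tissue digestion. Of these, 7 (20.6%, against 2.38% of all genes) were higher with spironolactone and none lower, with a median of 0.06. The 7 include the near-identical heat shock genes *Hspa1a* and *Hspa1b*, which were also counted in the list of receptors and chaperones. *Ier5* was 381, 346, and 324 CPM with spironolactone, 236, 206, and 183 CPM with prednisolone, and 372 to 403 CPM with vehicle (0.75 ± 0.11, adjusted p = 0.00212). *Jun*, part of the AP-1 transcription factor, was 1260, 1026, and 1067 CPM against 762, 624, and 486 CPM (0.84 ± 0.16, adjusted p = 0.0124). The prednisolone libraries were below all other libraries in both. *Gadd45b*, *Atf3*, and *Rhob* changed by 0.64, 0.63, and 0.48. *Fos*, the usual partner of *Jun*, did not follow them, at 1248, 929, and 1034 CPM against 1181, 1003, and 788 CPM (0.11, adjusted p = 0.710). Genes of the list called higher numbered 3 to 8 over the 9 fits without 1 library, with 3 without prednisolone library 2 and 4 without spironolactone library 2 or 3 or prednisolone library 3. Without prednisolone library 3, 2 genes of the list were called lower. No AP-1 letters (TGANTCA) were found in the 36 promoter windows of these genes, against 7.81% of all windows.

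*Thbs1*, *Vegfa*, and *Flt3*, which the study also named in these cells, were not called. *Thbs1*, thrombospondin-1, was 1264, 1269, and 1118 CPM with spironolactone and 1994, 1490, and 1422 CPM with prednisolone, under the vehicle mean of 2160 CPM in every drug library. The drugs did not overlap for *Thbs1* (−0.43, adjusted p = 0.0677), which passed the threshold in 6 of 12 other fits. *Vegfa*, an angiogenic factor, was 40.47 to 44.99 CPM against 25.66 to 52.27 CPM, with vehicle at 74.7 to 91.4 CPM. *Flt3*, a cytokine receptor, was 21.1 to 25.8 CPM against 21.7 to 24.5 CPM.

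Receptors that bind debris and dying cells changed in either direction. Of 33 scavenger and efferocytosis genes, 5 were higher and 2 lower (21.2%, against 5.17% of all genes). *Cd5l*, a secreted protein of tissue macrophages, was 39.9, 26.4, and 36.1 CPM with spironolactone, 16.6, 9.72, and 14.3 CPM with prednisolone, and 22.6 to 31.6 CPM with vehicle (1.33 ± 0.21, adjusted p = 0.00587). *Gas6*, which bridges dying cells to phagocytes, was 111, 114, and 107 CPM against 63.5, 59.1, and 63.8 CPM (0.83 ± 0.15, adjusted p = 0.0103). *Cd300lf*, *Clec10a*, and *Scarb1* were higher as well, *Cd300lf* by 0.60 and the galactose lectin *Clec10a* by 0.48. *Colec12*, a collectin, was lower by −0.39 (adjusted p = 0.0407). *Cd5l* held without each library, whereas the higher count was 1 without prednisolone library 2, 2 without spironolactone library 3, and 3 without spironolactone library 2 or prednisolone library 3. The lower count was 0 without spironolactone library 3 or prednisolone library 2 or 3, and 9 without vehicle library 1. *Colec12* kept its call in 4 of the 9 fits without 1 library.

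Complement genes were similarly divided. Of 23, *C1qb*, *C1qc*, and *Cd55* were higher and the integrins *Itgax* and *Itgam* lower (21.7% of the list, against 5.17% of all genes). *C1qb*, a chain of the recognition unit C1q, was 1885, 2282, and 2307 CPM with spironolactone and 1226, 1385, and 1606 CPM with prednisolone (0.62 ± 0.13, adjusted p = 0.0154). *Itgax*, which encodes CD11c, was 269, 401, and 398 CPM against 471, 654, and 582 CPM, with vehicle at 323 to 334 CPM (−0.68 ± 0.15, adjusted p = 0.0238). No higher complement gene was called without spironolactone library 2 or 3, or without prednisolone library 1 or 2. The lower count was 0 without prednisolone library 2 or 3, and 1 without spironolactone library 1 or 3 or prednisolone library 1.

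Markers of resident-like macrophages split within the list. Of 24, 6 were higher, namely *Cd5l*, *Gas6*, *C1qb*, *C1qc*, *Igf1*, and the selenium carrier gene *Selenop*, and 3 were lower, *F13a1*, *Cd163*, and *Lyve1*, so that 37.5% of the list was called against 5.17% of all genes. *Selenop* was 2277, 2970, and 2333 CPM against 1408, 1652, and 1874 CPM (0.62, adjusted p = 0.0422). *Lyve1*, the hyaluronan receptor of perivascular macrophages and lymphatic vessels, was 6.80, 11.7, and 12.4 CPM with spironolactone, 25.2, 41.9, and 26.3 CPM with prednisolone, and 7.54 to 16.5 CPM with vehicle (−1.60 ± 0.34, adjusted p = 0.0338). *Lyve1* kept its call in 2 of the 9 fits without 1 library, those without vehicle library 1 or 3. The higher count fell to 1 without prednisolone library 2 and to 2 without spironolactone library 3 or prednisolone library 1.

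Of 31 polarization genes, *Retnla*, *Clec10a*, *Cd274*, and *Socs1* were higher and *Cd163* lower (16.1% of the list, against 5.17% of all genes), so that markers of the alternative state lay on either side. *Cd274*, which encodes PD-L1, was 42.7 to 55.1 CPM with spironolactone and 33.5 to 38.5 CPM with prednisolone, under the 61.6 to 74.4 CPM of vehicle (0.45, adjusted p = 0.0343). *Socs1*, a brake on cytokine signaling, changed by 0.81 (adjusted p = 0.0411). Of 22 monocyte markers, *Ace*, the angiotensin-converting enzyme, was higher (0.60), and *Fn1* and *Spn*, which encodes CD43, were lower (13.6% of the list, against 5.17% of all genes). Of 26 dendritic cell markers, *H2-Oa*, *Irf8*, *Batf3*, and *Bst2* were higher and *Itgax* lower (19.2% of the list, against the same 5.17%), with a change of 0.93 ± 0.20 for the transcription factor *Batf3*. These calls moved with single libraries. Without spironolactone library 1, 2, or 3 and then prednisolone library 1, 2, or 3, the higher calls numbered 2, 1, 2, 2, 1, and 1 for polarization genes and 4, 2, 1, 1, 1, and 2 for dendritic markers, and no monocyte marker was called higher. The lower polarization call, *Cd163*, was kept in 3 of the 9 fits without 1 library.

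Among 40 hypoxia and glycolysis genes, *Hif1a* and *Pfkp* were lower and none was higher, with a list median of 0.02. These calls are 5% of the list, near the 5.17% of all genes tested, so that they are results on those genes and not on the list. *Hif1a*, the oxygen-regulated subunit of the hypoxia-inducible factor, was 143, 152, and 134 CPM with spironolactone, 263, 234, and 255 CPM with prednisolone, and 157, 211, and 202 CPM with vehicle. The vehicle libraries filled the gap between the drugs (−0.81 ± 0.11, adjusted p = 0.00189). *Pfkp*, a phosphofructokinase of glycolysis, was 99.9 to 104 CPM against 130 to 148 CPM, with vehicle at 105 to 110 CPM (−0.44 ± 0.08, adjusted p = 0.00933). Both calls held in all 9 fits without 1 library.

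Lipid genes moved in either direction. Of 36 LXR, efflux, and lipid-associated macrophage genes, *Fabp5*, *Fabp4*, *Mylip*, and *Trem2* were higher and *Fasn*, *Cd9*, and *Spp1* lower (19.4% of the list, against 5.17% of all genes). *Fabp5*, a fatty acid carrier, was 643, 527, and 631 CPM with spironolactone, 393, 303, and 322 CPM with prednisolone, and 459 to 624 CPM with vehicle (0.82 ± 0.13, adjusted p = 0.00490). *Fabp4*, which endothelial cells also express, changed by 1.11 ± 0.18. *Fasn*, fatty acid synthase, was 41.2, 49.2, and 45.8 CPM against 80.9, 60.8, and 60.6 CPM (−0.57 ± 0.12, adjusted p = 0.0203), and *Cd9*, a tetraspanin, changed by −0.47. The *Fabp5* and *Fabp4* calls held in all 9 fits without 1 library, and the higher count was 2 in 7 of them. The lower count was 0 without spironolactone library 3 or prednisolone library 1. It was 1 without spironolactone library 2 or prednisolone library 2 or 3, and 6 without vehicle library 1.

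Of 26 cholesterol synthesis genes, 23 had a negative change, with a median of −0.23, but only *Hsd17b7* was called, which is 3.85% of the list against 5.17% of all genes (−1.16 ± 0.25, adjusted p = 0.0188), and in 4 of the 9 fits without 1 library. Of 21 iron and heme genes, *Blvrb*, biliverdin reductase B, was higher at 93.2, 95.9, and 89.6 CPM against 61.8, 56.7, and 71.0 CPM (0.56 ± 0.09, adjusted p = 0.00532), and *Cd163* was lower, 9.52% of the list against the same 5.17%. Of 21 circadian clock genes, *Nr1d2*, a repressor of the clock, was higher (0.80 ± 0.16, adjusted p = 0.0137) and the repressors *Per2* and *Cry1* were lower (−1.14 ± 0.25 and −0.64 ± 0.16), 14.3% of the list against 5.17%. *Per2* was 7.404, 8.757, and 6.048 CPM with spironolactone and 16.01, 19.74, and 13.22 CPM with prednisolone. The hour at which tissue was taken is not given in the sources used here. *Nr1d2* kept its call in 6, *Per2* in 5, and *Cry1* in 4 of the 9 fits without 1 library.

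Most cytosolic ribosomal protein genes had a small positive change that did not pass the test, and the list ran from −0.53 to 0.55. Of 77, 76 had a positive change and 50 were higher without overlap, with a median of 0.32, where 2513 of all 16618 genes tested were higher without overlap. Of the 77, 6 (7.79%, against 2.38% of all genes) were called higher, *Rpl36*, *Rps29*, *Rps23*, *Rpl38*, *Rpl11*, and *Rpl23a*, with changes of 0.35 to 0.55. *Rpl38* was 255, 287, and 318 CPM with spironolactone, 198, 204, and 186 CPM with prednisolone, and 195 to 282 CPM with vehicle. No ribosomal gene was called without spironolactone library 2 or 3 or without any 1 prednisolone library, and 38 were called without vehicle library 1. Of 45 nuclear genes of the respiratory chain, *Ndufs7* and *Uqcrq* were called higher (0.36 and 0.46), with a median of 0.19. These calls are 4.44% of the list, against 5.17% of all genes tested in either direction. The count was 0 in 6 of the 9 fits without 1 library and 13 without vehicle library 1.

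Markers of cells that the CD45+CD11b+ gate should remove, or that are rare in it, were among the higher genes. Lists of 9 such cell types held 37 of the 395 higher genes (9.37%) and 3 of the 464 lower genes (0.647%), out of 189 of their genes tested. Of 23 lymphocyte and NK cell markers tested, 10 (43.5%, against 2.38% of all genes) were higher and none lower. *Il2rb*, a receptor chain of NK and T cells, was 10.98, 9.737, and 14.19 CPM with spironolactone, 3.13, 2.45, and 4.22 CPM with prednisolone, and 4.65 to 7.73 CPM with vehicle (1.83 ± 0.24, adjusted p = 0.00146). The granzyme gene *Gzma* changed by 2.28, *Nkg7*, of cytotoxic granules, by 2.31, *Gzmb* by 1.91, the NK receptor gene *Ncr1* by 2.2, the T cell kinase gene *Lck* by 1.65, *Cd79a*, of the B cell receptor, by 3.28, and *Cd4* by 1.10. The summed level of the list was 83.7 to 98.8 CPM with spironolactone, 35.3 to 54.7 CPM with prednisolone, and 53.1 to 59.5 CPM with vehicle. The defining genes *Trac*, *Trbc1*, *Trbc2*, *Ighm*, *Igkc*, and *Ighd* are listed at 0 in every library, but only 9 of the 665 immunoglobulin and T cell receptor segment genes in the files had any count, so that these zeros cannot be read as absence of lymphocytes. Some genes of the list, *Cd4* among them, are also expressed by macrophages or dendritic cells.

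Of 15 eosinophil, basophil, and mast cell markers tested, *Alox15*, *Ccr3*, *Il5ra*, and *Siglecf* were higher, 26.7% of the list against 2.38% of all genes. *Siglecf* was 17.97, 26.33, and 23.87 CPM with spironolactone and 12.4, 16.1, and 14.9 CPM with prednisolone (0.65 ± 0.15, adjusted p = 0.0217), and the summed list was 205 to 359, 179 to 217, and 208 to 378 CPM with spironolactone, prednisolone, and vehicle. *Ccr3* was 11.3, 18.3, and 18.3 CPM against 4.53, 5.20, and 6.68 CPM.

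Of 32 endothelial markers, 13 were higher and 1, *Lyve1*, lower (43.8%, against 5.17% of all genes). *Pecam1*, which encodes CD31, was 42.9, 35.3, and 38.2 CPM with spironolactone, 21.26, 18.4, and 15.03 CPM with prednisolone, and 14.5 to 25.1 CPM with vehicle (1.09 ± 0.18, adjusted p = 0.00729). *Cdh5*, VE-cadherin, changed by 1.13, *Egfl7* by 1.42, and *Icam2* by 0.83. Summed endothelial levels overlapped, at 1827 to 2674 CPM with spironolactone and 1721 to 2224 CPM with prednisolone. The pericyte genes *Mcam* and *Rgs5* were higher, each by 1.39, and so were the stromal genes *Col15a1* (0.91 ± 0.11, adjusted p = 0.000617) and *Thy1* (0.87). *Cspg4* and *Cxcl14*, which also mark pericytes and fibro-adipogenic cells, were lower. Of the 12 pericyte genes tested 11 had a positive change, and of the 30 fibro-adipogenic genes 25. Calls in either direction were 25% of the pericyte list and 10% of the fibro-adipogenic list, against 5.17% of all genes.

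Of 13 erythroid and platelet markers tested, the globin genes *Hba-a1*, *Hba-a2*, and *Hbb-bt*, the heme enzyme gene *Alas2*, and *Gata1* were higher, 38.5% of the list against 2.38% of all genes. *Hba-a2* was 29.9, 27.3, and 41.6 CPM with spironolactone, 8.60, 9.45, and 5.55 CPM with prednisolone, and 9.30 to 16.5 CPM with vehicle (2.07 ± 0.25, adjusted p = 0.00212). *Hba-a1* and *Hba-a2* are near-identical copies. Summed levels were 441 to 571 CPM with spironolactone and 247 to 331 CPM with prednisolone. Muscle fiber markers gave 1 call among 37, a share of 2.70% near the 2.38% of all genes, myoglobin (*Mb*, 1.24, adjusted p = 0.0429), while *Atp2a1*, the calcium pump of fast fibers, overlapped at 36.6 to 57.8 CPM against 32.4 to 63.9 CPM. *Mb* kept its call in 2 of the 9 fits without 1 library, with an adjusted p of 0.161 without spironolactone library 3. No satellite cell or Schwann cell marker was called. *Pax7* and *Chodl* changed by −1.25 and 1.71 (adjusted p = 0.132 and 0.124), and *Erbb3* and *Pmp22* by 0.57 and −0.37 (adjusted p = 0.0748 and 0.0669).

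Neutrophil markers were higher with spironolactone in 13 of 23 genes without overlap, as were 2513 of all 16618 genes tested, but none was called. An unadjusted p under 0.05 was reached by 8 of the 23, and by 3742 of all 16618 genes tested. *Mpo*, myeloperoxidase, was 11.8, 10.7, and 21.0 CPM with spironolactone, 0.00, 0.397, and 0.0297 CPM with prednisolone, and 2.58, 0.499, and 32.4 CPM with vehicle (6.64 ± 2.02, adjusted p = 0.120). *Ly6g*, which encodes the neutrophil gate marker, was 2.72, 1.61, and 8.90 CPM against 0.304 to 0.386 CPM. *Retnlg* was 71.9, 79.9, and 151 CPM against 23.2 to 29.5 CPM. Spironolactone library 3 and vehicle library 3 held the most, with summed levels of 4643 and 6388 CPM. The ranges were 1867 to 4643 CPM with spironolactone, 1356 to 1813 CPM with prednisolone, and 1143 to 6388 CPM with vehicle. Without vehicle library 3, 6 neutrophil markers were called higher.

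Mitochondrially encoded transcripts summed to 67040 to 78470 CPM with spironolactone, 39770 to 69920 CPM with prednisolone, and 35660 to 55110 CPM with vehicle. All 13 had a positive change, with a median of 0.59, and none was called, with *ND4* at 0.62 (adjusted p = 0.137) and *ND3* at 0.98 (adjusted p = 0.141). An unadjusted p under 0.05 was reached by 8 of the 13, and by 3742 of all 16618 genes tested. Prednisolone library 2, at 69920 CPM, overlapped the spironolactone libraries, and 7 genes were called without it. The sex-linked genes gave no call, and *Ddx3y* and *Eif2s3y*, of the Y chromosome, ranged from 6.61 to 32.9 and from 7.404 to 41.95 CPM within the spironolactone libraries. With the log2 CPM of *Xist* of each library as a covariate, 608 of the 859 calls between the drugs remained. The part of the mitochondrial, neutrophil, dendritic, lymphocyte, eosinophil, endothelial, and erythroid differences in the other results was not tested.

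The calls on these marker lists also moved with the libraries. Endothelial genes called higher numbered 5, 10, and 3 without spironolactone library 1, 2, or 3, 8, 3, and 3 without prednisolone library 1, 2, or 3, and 20 without vehicle library 1. Lymphocyte and NK cell genes numbered 9, 8, 5, 5, 4, and 9 in the same order of the 6 drug libraries. Erythroid genes numbered 4, 4, 1, 3, 3, and 3, and eosinophil, basophil, and mast cell genes 7, 2, 2, 2, 2, and 2. Pericyte genes called higher numbered 2, 2, 0, 2, 0, and 1, and fibro-adipogenic genes 2, 6, 1, 1, 1, and 1. *Il2rb*, *Gzma*, *Pecam1*, *Hba-a2*, *Ccr3*, *Alox15*, and *Col15a1* kept their call in every fit without 1 library.

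**Figure D5:**
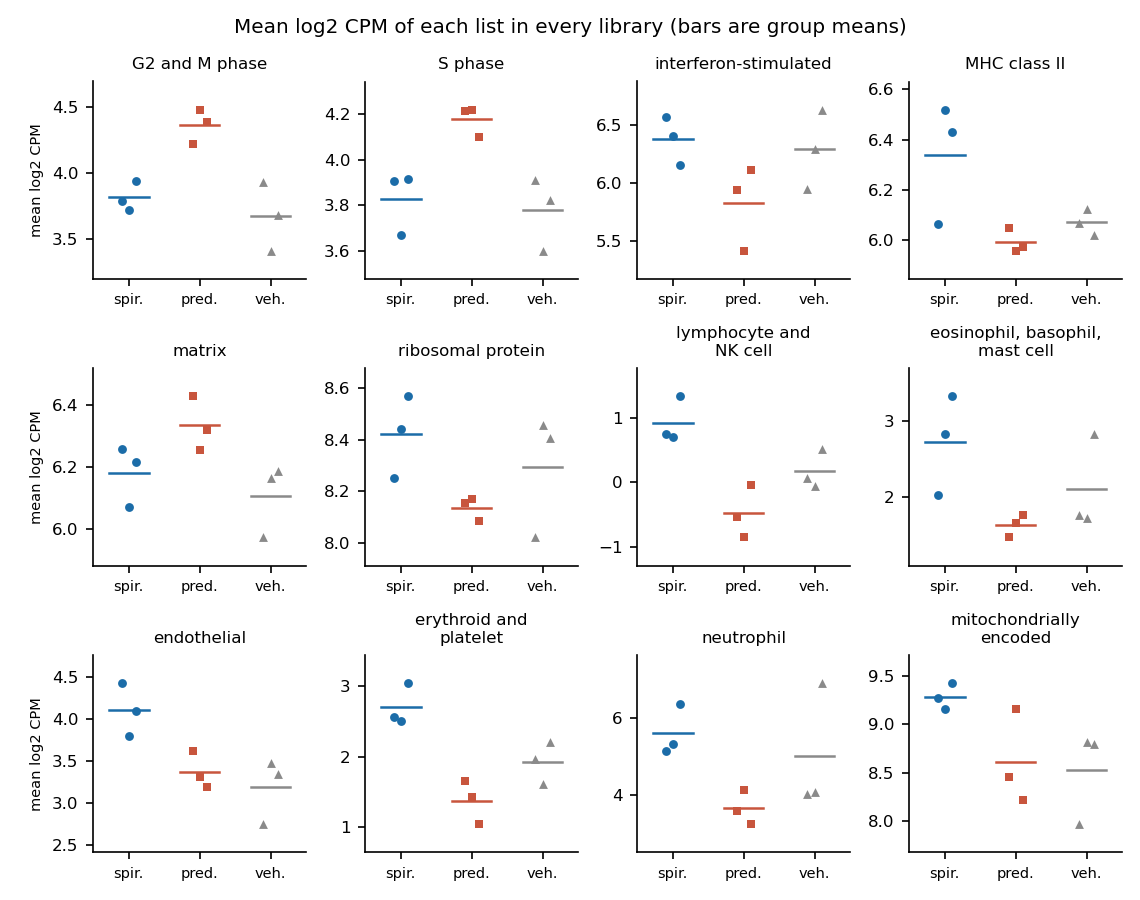
Each panel gives the mean log2 CPM of a gene list in each of the 9 libraries, with the group mean as a bar, on axes that do not start at 0. The G2 and M phase lists are highest with prednisolone, the lymphocyte, erythroid, and endothelial lists highest with spironolactone, and in the neutrophil panel spironolactone library 3 and vehicle library 3 stand above the rest, at 6.34 and 6.89.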

How the data were processed

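CD45+CD11b+ cells sorted from *mdx* quadriceps gave 9 libraries, 3 per treatment, each a pool of 3 mice. The deposited files hold raw counts per gene. Per the labels, the authors used HISAT2 2.2.1, HTSeq 0.11.3, DESeq2 1.32.0, and genome build mm39. The annotation release and strand setting are not given in the sources used here. Tables of the authors' own comparisons hold their fold changes and p-values and were not used. The 5 lines that name no gene (17.2% to 21.8% of counts) were left out.

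Counts were tested with edgeR 4.0.16 in R 4.3.3, in 1 quasi-likelihood fit of all 9 libraries with robust estimation, TMM factors, and filterByExpr (minimum count 10, minimum total 15). Tests were two-sided, and p-values were adjusted by the Benjamini-Hochberg method over all genes tested, with a threshold of 0.05. Each SE is that of the log2 fold change. CPM values use TMM-scaled library sizes. On simulated data for this comparison with 16262 genes, the edgeR fit recovered 37 of 100 genes changed 1.5-fold and 64 of 94 changed 2-fold, with 5 false calls. DESeq2 recovered 48 and 68 of 100 among 16618 genes, with 44 false calls. DESeq2 1.42.0, limma 3.58.1, other scalings, filters, and fits without 1 library were the alternatives.

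Named genes were, per direction, the 10 with the smallest adjusted p among called genes with a log2 change of at least 1 and no overlap between the drugs (symbols beginning with Gm or LOC or ending in Rik were left out), up to 4 called members per list and direction (2 by p where none was called), genes the study named in these cells, and genes of the sort and gates. Further list members and the genes of the closing section were chosen after their values were seen. The comparison, the members, and the gene lists were chosen with earlier results of these data known. Positions are from GENCODE on GRCm39, and 104 of the 190 named genes with a position overlap a gene on the opposite strand, so that their reads may be shared. Promoter windows are from RefSeq (GRCm38.p6). No 2 libraries of a group agreed within sampling noise, with chi-square per degree of freedom from 19.7 to 64.4.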

Additional observations from a re-analysis of the deposited data

How the results depend on the processing

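Of 159 genes named as called, 125 kept their call in each of the 12 other fits that tested them and 55 whichever of the 9 libraries was dropped, and none changed sign. The 859 calls (395 higher, 464 lower) became 1594 (731 and 863) with DESeq2, 1598 (733 and 865) with edgeR on the 6 drug libraries, 2061 (958 and 1103) with DESeq2 on those 6, and 1940 (973 and 967) without the filter on low counts. An adjusted p under 0.01 left 183 (79 and 104), and a log2 change of at least 1 left 208 (140 and 68). Leaving out 1 library gave 232 to 1898 calls, 94 to 902 higher and 138 to 996 lower. The replicate block gave 1082 calls, 815 of them among the 859. Deviations of same-numbered libraries correlated at −0.04 to 0.15, so that the numbers were not taken to pair the libraries. *Xist* as a covariate gave 635 calls. The cause of these differences was not tested.

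Genes with no call changed sign as follows. *Atp2a1* was −0.0146 with library totals and −0.0243 with the *Xist* covariate, *Eif2s3y* −0.144 with limma-voom and −0.437 with that covariate, and *Flt3* −0.0051 with library totals. Over the fits without 1 library, the change ran from −0.0893 to 0.0176 for *Adgre1*, from −0.198 to 0.282 for *Atp2a1*, from −0.764 to 0.198 for *Ddx3y*, from −0.595 to 0.572 for *Eif2s3y*, from −0.0498 to 0.0984 for *Flt3*, from −0.0311 to 0.256 for *Fos*, and from −0.146 to 0.330 for *Vegfa*. At about 32.4 counts per CPM, counting error is largest for genes near or under 1 CPM, and whether depth limited their calls was not tested.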

Other observations

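Further called genes belong to no list above and were picked after their values were seen, so that they are values and not a theme. Among genes lower with spironolactone, *Acp5*, tartrate-resistant acid phosphatase, was 121, 186, and 172 CPM with spironolactone and 225, 343, and 316 CPM with prednisolone (log2 fold change −0.89 ± 0.21, adjusted p = 0.0429 by edgeR), and *Dcstamp*, needed for the fusion of macrophages, was 3.64 to 5.75 CPM against 8.08 to 11.3 CPM (−0.89, adjusted p = 0.0303). The calls held in 3 and 4 of the 9 fits without 1 library. *Lmna*, which encodes lamin A, was 546, 540, and 589 CPM against 923, 887, and 733 CPM (−0.60 ± 0.11, adjusted p = 0.00729). *Itga5*, the alpha chain of the fibronectin receptor, was 281 to 291 CPM against 373 to 408 CPM, with vehicle at 329 to 334 CPM in between (−0.45 ± 0.08, adjusted p = 0.00782). Both held without each library.

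The transcription factor genes *Etv1* and *Etv5* were also lower and held without each library. *Etv1* was 5.54, 6.17, and 5.19 CPM with spironolactone and 10.96, 14.89, and 14.43 CPM with prednisolone (−1.25 ± 0.16, adjusted p = 0.00124), and *Etv5* changed by −0.70 ± 0.10. The amino acid transporter genes *Slc7a5* and *Slc1a5* changed by −0.75 and −0.51 (adjusted p = 0.0102 and 0.0169). Among genes higher with spironolactone, *Aif1*, which encodes the actin-binding protein IBA1, was 74.0, 79.8, and 79.7 CPM against 39.9, 34.0, and 46.3 CPM (0.96 ± 0.14, adjusted p = 0.00254). *Ms4a7*, a macrophage membrane protein gene, was 328, 393, and 351 CPM against 209, 209, and 240 CPM (0.70 ± 0.10, adjusted p = 0.00187). In both genes the prednisolone libraries were below all 6 others.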
